A study of Mus musculus with 93 samples.

Results

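The yolk sac libraries of this series follow one blood lineage within a single organ, from its progenitor to its macrophage. They were chosen by their labels as all libraries of the tissue yolksac, which gave 14 of the 93 libraries. They are 7 of Mac (macrophages; 4 at E10.25 and 3 at E10.5), 3 of pMac (the precursor stage between progenitor and macrophage; 2 at E9.5 and 1 at E10.25) and 4 of EMP (erythro-myeloid progenitors; 2 at E9 and 2 at E10.25). All are mouse embryonic cells that were sorted and then sequenced as polyA RNA with SMART-Seq2, a full-length method for small amounts of RNA. The labels give no strain, genotype, sex, cell number, pooling or sort gate. Stage and age overlap only in part, since E10.25 is the one age with all 3 stages and the remaining libraries have earlier ages for EMP and pMac and a later age for Mac. The series description says that replicates are technical and biological without telling them apart, so each p-value reflects how much the libraries vary, and part of that variation may be technical.

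Erythro-myeloid progenitors arise from hemogenic endothelium of the yolk sac and carry the stem cell factor receptor Kit. They give rise to red cells, megakaryocytes, mast cells, granulocytes and, through a precursor that turns on the fractalkine receptor Cx3cr1, to the macrophages that seed the organs of the embryo. Growth through Csf1r, the receptor for colony-stimulating factor 1, and the transcription factor PU.1, encoded by Spi1, are both needed for this lineage, and Adgre1 encodes F4/80, the classical surface marker of mouse macrophages. Yolk sac macrophages engulf dying cells and the debris of primitive red cells.

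The promoters of Stab1, C1qb and Mrc1, the genes with the largest rises between EMP and Mac, and of Kit, the gene with the largest fall, are shown as the regulatory sequence that belongs to the main result. Each is a RefSeq window of the GRCm38.p6 build, read 5′ to 3′ on the strand of the gene, from 250 bases before the start site to 50 bases after it. Capitals mark the letters GAGGAA, the core that PU.1 is known to bind, or their reverse complement TTCCTC. The windows lie at chr14:31168592-31168891 (minus strand, Stab1), chr4:136886151-136886450 (minus, C1qb), chr2:14229164-14229463 (plus, Mrc1) and chr5:75574737-75575036 (plus, Kit).
Stab1: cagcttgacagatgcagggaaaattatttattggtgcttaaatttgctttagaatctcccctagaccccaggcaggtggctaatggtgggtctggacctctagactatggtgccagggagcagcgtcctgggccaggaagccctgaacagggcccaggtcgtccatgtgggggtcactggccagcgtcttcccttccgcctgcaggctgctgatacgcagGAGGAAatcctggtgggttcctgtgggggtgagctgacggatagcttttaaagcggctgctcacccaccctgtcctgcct
C1qb: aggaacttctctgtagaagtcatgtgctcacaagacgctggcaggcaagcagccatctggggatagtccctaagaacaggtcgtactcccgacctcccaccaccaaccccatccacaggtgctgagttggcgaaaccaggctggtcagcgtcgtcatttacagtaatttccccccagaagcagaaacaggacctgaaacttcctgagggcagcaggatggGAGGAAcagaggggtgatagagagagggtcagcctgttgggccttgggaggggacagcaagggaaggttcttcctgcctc
Mrc1: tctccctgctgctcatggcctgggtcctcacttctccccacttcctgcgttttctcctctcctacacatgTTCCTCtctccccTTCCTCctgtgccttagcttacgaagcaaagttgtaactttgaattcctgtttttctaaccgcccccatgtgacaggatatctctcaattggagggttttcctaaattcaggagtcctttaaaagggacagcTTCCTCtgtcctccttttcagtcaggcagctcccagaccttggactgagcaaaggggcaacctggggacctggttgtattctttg
Kit: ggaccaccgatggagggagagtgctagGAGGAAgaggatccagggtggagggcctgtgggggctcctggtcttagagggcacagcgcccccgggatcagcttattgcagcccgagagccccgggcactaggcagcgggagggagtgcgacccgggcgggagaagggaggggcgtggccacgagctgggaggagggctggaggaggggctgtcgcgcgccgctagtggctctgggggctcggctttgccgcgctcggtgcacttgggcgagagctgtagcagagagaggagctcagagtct
The match began 30 bases before the start site in both Stab1 and C1qb. Mrc1 had 3 matches, which began 180, 167 and 35 bases before its start site, and the Kit window had 1, at 223 bases before.

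Values are gene levels on a log2 scale, built from the authors' normalized values per transcript, and a level of 5.37 means that no transcript of the gene was above the detection floor. For a gene not detected in one group, the size of the difference is set in part by this floor and cannot be read as an exact fold. Between 18701 and 24291 transcripts lay above the floor in the 14 libraries. Genes above the floor numbered 8374 to 10870 in Mac, 10785 to 10862 in pMac and 10834 to 11132 in EMP. The median level of detected genes was 8.461 to 11.001 in Mac, 8.546 to 8.906 in pMac and 8.452 to 9.064 in EMP. Mac E10.5 replicate 3 had both the fewest genes and the highest median, so the libraries may not lie on a common scale. The cause was not tested. The file holds no counts, so the depth of each library is unknown. The libraries fall into a larger and a smaller set by small shared offsets in their lowest values, which no label names. The larger set holds 3 Mac and 3 EMP libraries, the smaller one 4 Mac, 3 pMac and 1 EMP library, so within a set pMac can be compared with 1 EMP library only.

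Markers of other cells were high in some libraries. Beyond a fit without Mac E10.5 replicates 1 and 3, given below, their part in the results was not tested. Mac E10.5 replicate 1 had the highest Mac levels of the mast cell list, with a mean of 9.30 over its 4 members in the file, and of the fibroblast list, with 8.10. Mac E10.5 replicate 3 had a megakaryocyte list mean of 10.48, against 5.82 to 7.35 in the other 6 Mac libraries, and the fewest transcripts above the floor. The erythroid list mean was 7.62 to 10.86 in Mac, highest in E10.5 replicates 3 (10.86) and 1 (9.98) and in E10.25 replicate 3 (9.74). EMP E10.25 replicate 1 had one of 9.57, against 6.14 to 7.0 in the other 3 EMP libraries. EMP E10.25 replicate 2 had a visceral endoderm list mean of 9.48, against 5.64 to 6.62 in the other 3. In bulk libraries, fewer cells of a type and less RNA per cell cannot be told apart.

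The 3 marker genes followed the labels. Kit had a lowest, median and highest level of 5.37, 5.37 and 8.59 in Mac, against 10.79, 10.80, 11.31 and 11.12 in EMP. Kit was at the floor in 6 of 7 Mac libraries, and even the exception, Mac E10.5 replicate 1, lay below every EMP library. Kit was lower in Mac by a log2 difference of -5.18 ± 0.67 (limma adjusted p = 2.18e-05; values after ± are standard errors of the limma fit). Adgre1 lay at 8.82, 11.27 and 12.83 (lowest, median, highest) in Mac, against 5.37, 5.43, 6.04 and 5.37 in EMP, a difference of 5.68 ± 0.67 (limma adjusted p = 5.75e-06). Csf1r lay at 13.40, 14.58 and 14.99 in Mac, against 10.30, 10.68, 9.19 and 9.17 in EMP. Csf1r mRNA was thus already well above the floor in every progenitor library, and rose by 4.49 ± 0.48 in Mac (limma adjusted p = 1.65e-06). In pMac, Kit stood at 6.67, 7.45 and 6.55, Adgre1 at 9.27, 9.65 and 8.90 and Csf1r at 13.33, 12.82 and 13.04. A gene whose protein was used in the sort would differ by construction, and the labels do not say which were.

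**Figure D1:**
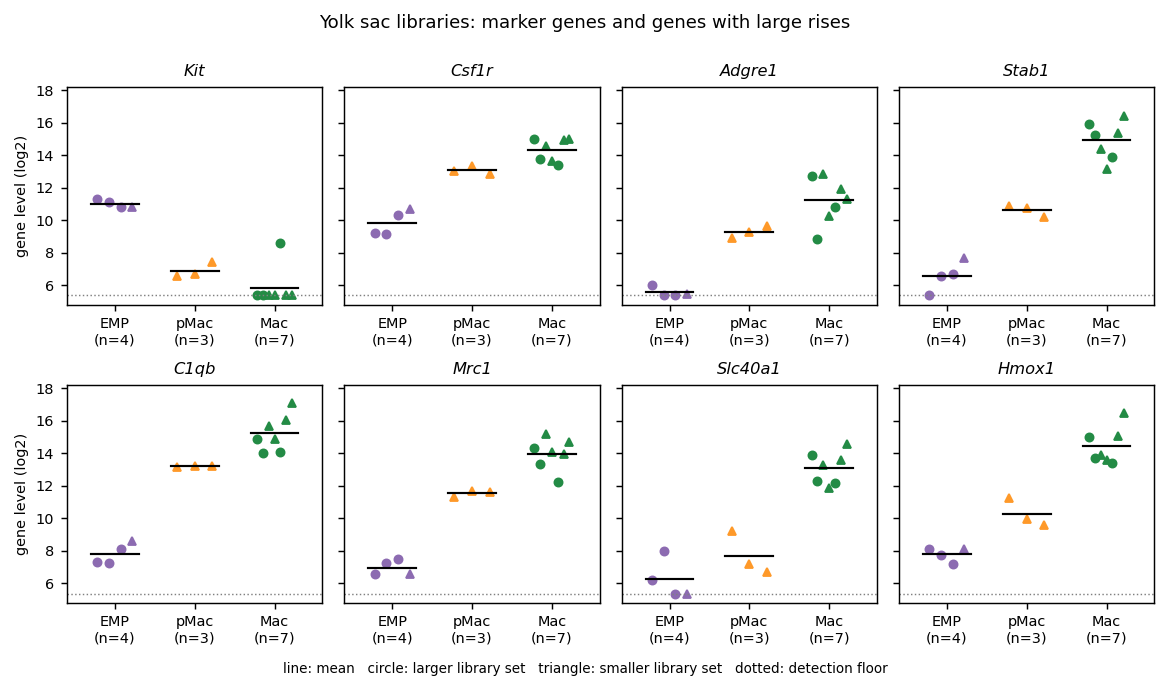
Gene level (log2) of 8 genes in each yolk sac library, by stage from EMP (n = 4) over pMac (n = 3) to Mac (n = 7); points are libraries, shaped by library set, black lines are means and the dotted line is the detection floor of 5.37. Kit was at the floor in 6 of 7 Mac libraries, Csf1r and C1qb were above it in every library, and Slc40a1 and Hmox1 had pMac means nearer to the EMP mean than to the Mac mean.

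Between Mac and EMP, 889 of 11258 genes tested were called (7.9%; limma, adjusted p under 0.05 and log2 difference of at least 1). Of these, 581 were higher in Mac (5.16% of genes tested) and 308 lower (2.74%). The median difference over all genes tested was 0.17. The Mac and EMP libraries did not overlap for 845 genes (7.51%). The share of higher calls, 65.4%, moved with scaling, floor and age. It was 79.4% of 709 calls with the floor raised by 1 and 53.5% of 1153 with a floor from the 14 libraries. After quantile normalization, which moved the median of all genes to -0.16, it was 54.2%. With age as a covariate it was 45.2% of 588, and in the libraries of E10.25 alone (4 Mac, 1 pMac, 2 EMP) 32.4% of 540. These last 2 settings share 1 estimate of each difference, since every other age holds 1 stage. Leaving out 1 library changed the count to between 525 (without EMP E10.25 replicate 1) and 1089 (without Mac E10.5 replicate 3), and it was 579 without EMP E10.25 replicate 2. The genes among the 889 that a setting tested (785 with the raised floor) kept their direction in every setting outside the smaller set. In the fit within the smaller set 884 did. Fewer of the 889 were called again: 410 with age as a covariate and 349 in the libraries of E10.25 alone. With the replicate number as a block 558 were, and within the larger set 246. Each setting refits all or part of the libraries that chose these genes, so a kept direction was largely given in advance.

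The largest rises were those of Stab1, C1qb and Mrc1. Stab1, which encodes the scavenger receptor stabilin-1 (chromosome 14, 31139013 to 31168641, minus strand, mm10), had levels of 13.14, 15.23 and 16.42 (lowest, median, highest) in Mac, against 6.70, 7.65, 5.37 and 6.59 in EMP. No library of one stage came near the other, and the difference of 8.32 ± 0.57 was the largest rise of any gene under the naming rule (limma adjusted p = 7.03e-09). C1qb, a chain of the complement recognition molecule C1q, lay at 13.99, 14.88 and 17.11 in Mac, against 8.10, 8.57, 7.33 and 7.23 in EMP. The 3 C1q chain genes sit side by side on chromosome 4, from 136880129 (C1qb) to 136898803 (C1qa), and rose together: C1qb by 7.43 ± 0.54, C1qa by 6.68 ± 0.61 and C1qc by 6.61 ± 0.56. Mrc1, the mannose receptor CD206, lay at 12.24, 14.08 and 15.16 in Mac, against 7.5, 6.55, 6.57 and 7.23 in EMP, a rise of 7.0 ± 0.50 (limma adjusted p = 7.03e-09). The groups were separate for each of these genes, as the rule for the top genes required.

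Genes of metal transport and heme breakdown were also among the 12 largest rises. Slc11a1, the phagosomal metal transporter NRAMP1, was at the floor in all 4 EMP libraries and at 10.89, 12.37 and 14.07 (lowest, median, highest) in Mac, a difference of 6.97 ± 0.60. Slc40a1, the iron exporter ferroportin, lay at 11.84, 13.30 and 14.57 in Mac, against 5.37, 5.37, 6.22 and 8.0 in EMP (6.84 ± 0.65). The EMP library nearest to Mac in Slc40a1 was still well below the lowest Mac library. Hmox1, the heme oxygenase that breaks down heme, lay at 13.42, 13.88 and 16.48 in Mac, against 7.2, 8.14, 8.10 and 7.75 in EMP (6.65 ± 0.55). Also among the 12 largest rises were Ctss (the protease cathepsin S, 6.79), C3ar1 (the receptor for C3a, 6.62) and Gas6 (the bridge between dying cells and TAM receptors, 6.44). All 12 were called in each fit that left out 1 library, and 12 of 12 in the libraries of E10.25 alone, where their differences ran between 5.71 and 8.68. With the replicate number as a block and within the larger set 12 of 12 passed, and within the smaller set 10 of 12.

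Of the 12 largest falls, that of Kit was the largest. After it came Tsc22d1, a TGF-beta-responsive transcription regulator, at 5.37, 6.62 and 9.28 (lowest, median, highest) in Mac, against 10.93, 10.32, 12.55 and 13.19 in EMP (-4.80 ± 0.75, limma adjusted p = 0.000209). Mycn, a growth-promoting transcription factor of the MYC family, was at the floor in 6 of 7 Mac libraries and at 8.14 in Mac E10.5 replicate 1, against 9.93, 9.45, 11 and 10.57 in EMP (-4.47 ± 0.62). That same library was the highest Mac library for Kit and Mycn. Cd34, the sialomucin of blood progenitors and endothelium, lay at 5.37, 9.67 and 11.18 in Mac, against 11.75, 12.53, 13.91 and 14.26 in EMP (-3.97 ± 0.77). Angpt1, the ligand of the receptor Tek, differed by -3.80 and Spns2, a transporter of sphingosine 1-phosphate, by -4.59. The remaining ones were Zfp711 (-4.39), the adhesion receptor gene Adgrg3 (-4.24), the nuclear factor gene Tox (-4.22), the transcriptional coregulator gene Mn1 (-4.10), Emid1 (-3.84) and Ccnd2, cyclin D2 (-3.71). All 12 stayed called in each fit that left out 1 library, but 5 of 12 passed within the larger set and 2 of 12 within the smaller set. In the libraries of E10.25 alone 11 of 12 passed, and with the replicate number as a block 10 of 12.

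**Figure D2:**
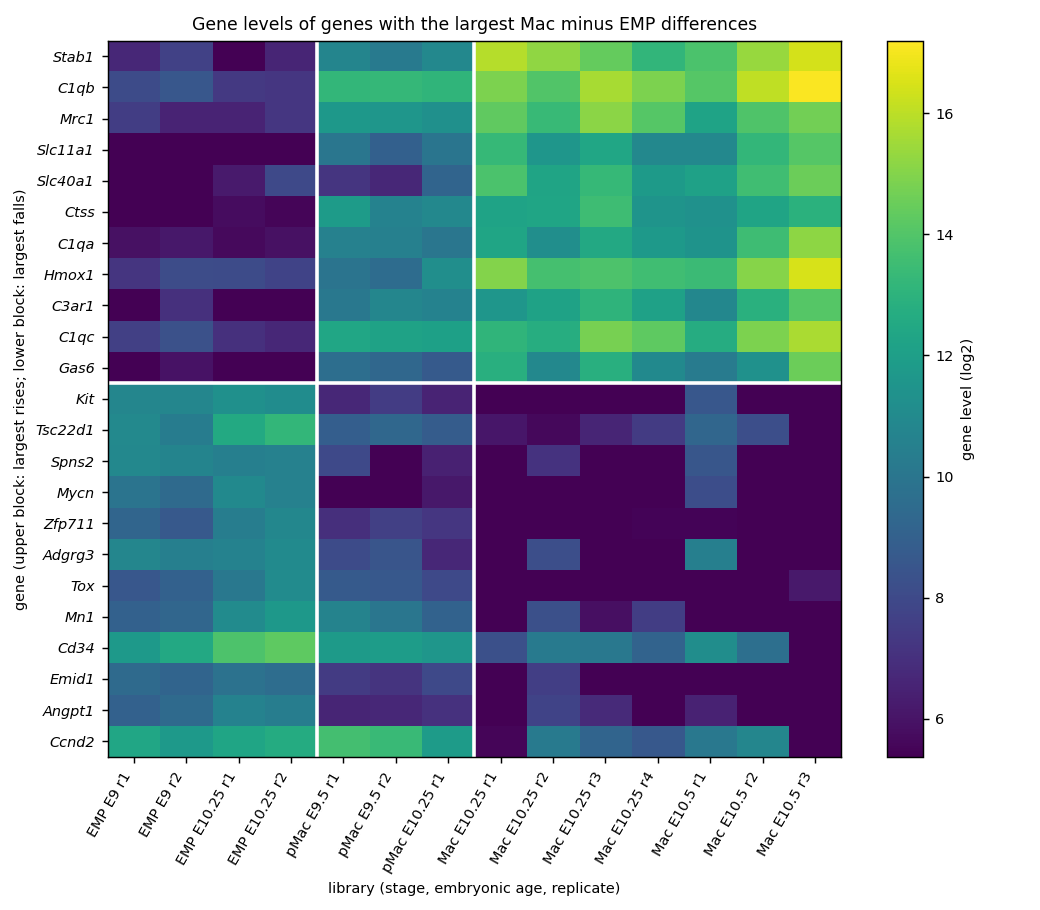
Gene level (log2, colour) of 11 of the 12 genes with the largest rises and of the 12 with the largest falls (rows) in each of the 14 libraries (columns, ordered EMP, pMac, Mac and by age). The upper rows are dark in EMP and bright in Mac with pMac between them, and Mac E10.5 replicate 1 is the Mac column with visible Kit (8.59) and Mycn (8.14).

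Macrophage identity genes rose nearly as a block. Of 22 tested genes of the macrophage core list, 19 were called higher in Mac and none lower. The list median was 4.67, against 0.17 over all genes tested. For this list and each list below, the shares over all genes tested were 5.16% higher and 2.74% lower in Mac against EMP. Aif1, the actin-binding protein IBA1, was at the floor in all 4 EMP libraries and at 9.55, 11.07 and 13.12 (lowest, median, highest) in Mac (5.79, limma adjusted p = 3.26e-06). Fcgr1, the high-affinity IgG receptor, rose by 5.18, and Mertk, a receptor for dying cells, by 4.83. Timd4, another receptor for dying cells, was at the floor in every EMP library and at 8.23, 8.72 and 10.57 in Mac (3.54). Itgam (1.59) and Cd33 (0.88) were among the tested members that did not pass. Cd163 was above the floor in 2 of 7 Mac libraries and in no other, and it was not tested.

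Complement and phagocytic receptor genes were called higher in 16 of 25 and lower in none, with a list median of 3.54. Apart from the top genes, Msr1, a scavenger receptor for modified lipoprotein, rose by 5.10 and Lrp1, a large endocytic receptor, by 4.44. Lrp1 lay at 9.84, 11.54 and 12.89 (lowest, median, highest) in Mac, against 6.49, 8.44, 6.20 and 6.59 in EMP, without overlap. The Fc receptor genes Fcgr4 (3.56) and Fcgr3 (2.88) and their signalling chain Fcer1g (2.58) also rose. Marco, Cd209f and Vsig4 were at the floor in all 14 libraries.

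Receptors for growth factors changed in both directions. Of 32 tested, 12 were higher in Mac and 4 lower, with a median difference of 1.39. Tnfrsf11a, the receptor RANK, lay at 7.98, 10.45 and 10.93 (lowest, median, highest) in Mac, against 5.51, 5.92, 5.37 and 5.37 in EMP (4.44 ± 0.61, limma adjusted p = 4.58e-05). The chains of the receptors for IL-10 (Il10ra 2.67, Il10rb 2.80), IL-4 and IL-13 (Il4ra 2.08, Il13ra1 3.09) and type I interferon (Ifnar1 2.09, Ifnar2 1.51) all rose. Among those that fell were Kit, the IL-1 receptor Il1r1 (-2.80) and the VEGF receptor Flt1 (-2.55). Flt3 (-2.05) and Il7r (-2.07), receptors of early lymphoid and myeloid progenitors, did not pass.

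Chemotactic receptors and their ligands rose in part. Of 12 tested chemokine and related receptors, 8 were higher in Mac and none lower (median 3.29), and of 17 chemokines and cytokines, 12 were higher and none lower (median 2.77). P2ry6, the UDP receptor linked to phagocytosis, lay at 10.13, 11.45 and 13.89 (lowest, median, highest) in Mac, against 5.37, 6.94, 6.95 and 6.43 in EMP (5.23 ± 0.65). C5ar1, the receptor for C5a, rose by 5.11, Ccr1 by 4.79, and Cx3cr1 by 4.43. Ccl2, which attracts monocytes, was at the floor in all 4 EMP libraries and at 10.37, 11.19 and 13.02 in Mac (5.86 ± 0.63, limma adjusted p = 2.25e-06). Ccl6 (4.98), Pf4 (4.93) and Ccl9 (4.85) followed. Tnf (2.13) and Ccr2 (1.64) were among those that did not pass.

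Myeloid transcription factors rose in part. Of 24 tested myeloid factors, 10 were higher in Mac and none lower, with a median of 1.87. Maf, a macrophage regulator, lay at 11.07, 12.37 and 12.91 (lowest, median, highest) in Mac, against 8.19, 9.0, 7.56 and 6.24 in EMP (4.27 ± 0.53, limma adjusted p = 1.08e-05). Nr1h3, the liver X receptor alpha that controls cholesterol export, rose by 3.59, although EMP E10.25 replicate 2, at 7.71, lay just above the lowest Mac library. Irf5 (3.40), Zeb2 (2.79), Irf8 (2.63) and Id3 (2.49) also rose. With age as a covariate, and in the libraries of E10.25 alone, the calls of Nr1h3 and Irf5 were lost. Spi1 was high in every library, at 11.87, 12.36 and 14.04 in Mac and at 11.12, 11.84, 12 and 12.47 in EMP, and its difference of 0.75 did not pass (limma adjusted p = 0.389). Atf3, a stress-response factor, was called at 2.96, with an adjusted p of up to 0.107 in the 7 fits without 1 of Mac E10.25 replicates 1 or 3, Mac E10.5 replicate 2 or any EMP library.

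Genes for digestion and for handling lipid and iron rose in part in Mac. Of 39 tested lysosomal genes, 16 were higher and none lower, and all 39 had a positive difference (median 1.77). Over all genes tested, 6497 of 11258 had a positive difference. Ctsb, cathepsin B, lay at 14.13, 15.25 and 17.22 (lowest, median, highest) in Mac, against 8.77, 9.85, 10.97 and 11.76 in EMP (4.95 ± 0.60), and Lgmn, the protease legumain, rose by 5.21. Of 23 lipid genes, 6 were higher and 17 did not pass (median 0.78). The 6 were Lpl, lipoprotein lipase (5.60), Abca1, which exports cholesterol (4.84), Nr1h3, the fatty acid receptor Cd36 (3.53), Apoe (3.05) and the lipid droplet protein Plin2 (2.57). The sterol synthesis genes Sqle (-0.23) and Hmgcs1 (-0.49) did not pass. Of 17 iron and heme genes, 8 were higher and 1 lower. Besides the transporters and Hmox1 these were both biliverdin reductases, which act after heme oxygenase (Blvrb 3.2, Blvra 2.16), the ferritin chains Ftl1 (2.48) and Fth1 (2.13), and Lrp1. Steap3, the ferrireductase of transferrin iron uptake, was the one that fell (-2.15), and the transferrin receptor gene Tfrc did not pass (0.30).

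Defence genes rose in part. Of 21 pattern recognition genes, 9 were higher and none lower (median 1.71). Tlr1, a partner of Tlr2, was at the floor in all 4 EMP libraries and at 8.61, 11.53 and 12.27 (lowest, median, highest) in Mac (5.40 ± 0.70), and the endotoxin receptor genes Cd14 (3.72), Tlr4 (3.31) and Ly96 (2.76) rose. Of 11 oxidase and antimicrobial genes, 7 were higher, among them Lyz2, lysozyme (4.23), Cybb, the catalytic chain of the phagocyte oxidase (3.74), and Mpeg1, the pore former perforin-2 (3.61). Of 21 interferon response genes, 6 were higher, and they varied widely between Mac libraries: Oas2 lay at 5.37, 10.65 and 11.74 (lowest, median, highest) in Mac, against the floor in all 4 EMP libraries (4.47 ± 1.0, limma adjusted p = 0.00582). Mx1 rose by 4.09. Of 26 integrin and migration genes, 5 were higher, led by Itgb5 (3.89), and Pecam1 was lower (-2.80), a call lost in 9 of the 14 fits that left out 1 library (limma adjusted p up to 0.142, without EMP E10.25 replicate 1).

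Genes of the progenitor state fell in part. Of 14 tested progenitor genes, 5 were lower and none higher (2.74% lower over all genes), with a median of -2.09. Among them were Kit, Mycn, Cd34 and Gata2, a factor of progenitors and mast cells. Gata2 was at the floor in 6 of 7 Mac libraries and at 8.98 in Mac E10.5 replicate 1, against 9.74, 8.98, 9.90 and 8.91 in EMP, so that this library overlapped EMP (-3.50 ± 0.65, limma adjusted p = 0.00114). Without Mac E10.5 replicates 1 and 3 the difference was -4.01. The blood factors Runx1 (-0.51), Tal1 (-1.16), Lmo2 (-1.22) and Myb (-1.97) did not pass. Myb, which definitive blood stem cells need and yolk sac macrophages do not, was at 5.37, 9.82 and 10.32 (lowest, median, highest) in Mac, against 10.20, 9.58, 10.61 and 10.87 in EMP.

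Of 11 genes of the fetal programme, 2 were lower in Mac, against 2.74% lower over all genes. Hmga2, a chromatin protein of fetal growth, lay at 6.88, 7.99 and 10.18 (lowest, median, highest) in Mac, against 11.50, 11.71, 10.19 and 10.94 in EMP (-2.79 ± 0.58, limma adjusted p = 0.0033). Igf2, the fetal growth factor, differed by -3.18, with an adjusted p of up to 0.0692 without either EMP E10.25 library. Lin28b (-0.35) did not pass. Of 24 chromatin genes, 3 were lower: the methylcytosine oxidase Tet1 (-2.95), the de novo methyltransferase Dnmt3b (-2.18) and the Polycomb protein Cbx2 (-1.70). The adjusted p of Dnmt3b was 0.05 or more in each fit without 1 EMP library, with up to 0.0723, and that of Cbx2 was 0.0723 without EMP E10.25 replicate 1. Tet2 (1.81) and Dnmt3a (0.71) did not pass.

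Cell cycle genes differed at about the background share. Of 31 genes of DNA replication and G1/S, 1 was called, of 28 mitotic genes 1, and of 12 inhibitors limma called none (4 at an unadjusted p under 0.05). Over all genes tested, 2356 of 11258 had an unadjusted limma p under 0.05. Mki67, which encodes the proliferation antigen Ki-67, was the mitotic gene, at 13.07, 13.93 and 15.83 (lowest, median, highest) in Mac, against 12.39, 11.97, 11.12 and 11.40 in EMP (2.40 ± 0.53, limma adjusted p = 0.00549). Ccnd2 was the gene of G1/S, lower in Mac. Of 31 genes of ribosome biogenesis 1 was called, and that was Mycn. Of 21 glycolysis genes, Hk3, a hexokinase of myeloid cells, was the called gene: it was at the floor in all 4 EMP libraries and between 9.84 and 12.51 in Mac (5.71 ± 0.68). No other glycolytic gene passed, and the next largest difference in size was Ldhb at -2.14.

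Genes known from tissue macrophages were present in part. Of 10 tested Kupffer cell genes, 6 were higher in Mac: Slc40a1, Fcna (a ficolin, 6.26), Folr2 (a folate receptor, 3.73), Nr1h3, Timd4 and Id3. Fcna lay at 10, 11.85 and 14.34 (lowest, median, highest) in Mac, against 5.37, 5.37, 5.37 and 5.96 in EMP. The Kupffer markers Clec4f and Cd5l were each above the floor in 1 of 7 Mac libraries. Of 17 tested microglia genes, 7 were higher and 2 lower. Trem2, a lipid-sensing receptor, was at the floor in every EMP library and at 9.81, 10.98 and 13.70 in Mac (5.76 ± 0.66), Fcrls rose by 5.24 and P2ry12 by 3.44. Adgrg1 (-4.19) and Sparc (-2.50) were lower, and Tmem119 (0.17) did not pass. The call of Adgrg1 was lost without either EMP E10.25 library (limma adjusted p up to 0.0716).

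Markers of other cells were measured in the same fit. Of 18 tested erythroid genes, 5 were higher in Mac, and all 5 were globins (Hba-x, Hba-a2, Hbb-y, Hba-a1 and Hbb-bh1). Alas2 (1.23), Klf1 (-0.85) and Gata1 (-1.13) did not pass. Hba-a1 and Hba-a2 are near-identical copies, so their shares are uncertain. Hbb-y, the embryonic globin, lay at 10.74, 14.41 and 17.62 (lowest, median, highest) in Mac, against 10.03, 8.22, 14.70 and 6.95 in EMP (4.5 ± 1.1, limma adjusted p = 0.0118). EMP E10.25 replicate 1 lay among the Mac libraries, and without it the difference was 6.07, while it did not pass without EMP E10.25 replicate 2 (3.49, limma adjusted p = 0.0793) or without EMP E9 replicate 2 (3.91, limma adjusted p = 0.0608). In the libraries of E10.25 alone Hbb-y differed by 2.57 and did not pass (limma adjusted p = 0.487).

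Of 11 tested endothelial genes, 6 were lower in Mac and none higher, with a median of -2.04. Sox18, an endothelial factor, was at the floor in all 7 Mac libraries, against 8.04, 8.94, 8.84 and 9.33 in EMP (-3.42 ± 0.46, limma adjusted p = 3.86e-05). Esam (-3.57) and Plvap (-3.15) were likewise at the floor in every Mac library, and Tek, the receptor TIE2, differed by -3.22. Sox17 was at the floor in all 14 libraries. The mean level over the list members was 6.05 to 6.84 in Mac and 7.79 to 8.5 in EMP.

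Of 9 megakaryocyte genes, 1 was higher in Mac (Pf4) and 2 were lower, among them Nfe2 (with an adjusted p of up to 0.101 without 1 EMP library), and Vwf was at the floor in all 14 libraries. Of 4 mast cell genes, Kit and Gata2 were lower. Of 8 monocyte genes, F13a1 (4.33) and Plac8 (1.88) were higher, and Plac8 was lost in 11 of the 14 fits that left out 1 library, with an adjusted p of up to 0.168 (without EMP E9 replicate 1). Of 12 visceral endoderm genes, 1 was called (8.3%, near the 7.9% over all genes). That was Epcam, lower in Mac (-1.70, with a limma adjusted p of 0.0899 without EMP E10.25 replicate 2). limma called none of 5 neutrophil granule, 3 fibroblast and 3 lymphoid genes. Of these, 2, 1 and 3 had an unadjusted limma p under 0.05, against 2356 of all 11258 genes tested. Beyond a fit without Mac E10.5 replicates 1 and 3, the part of these markers in the other results was not tested.

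**Figure D3:**
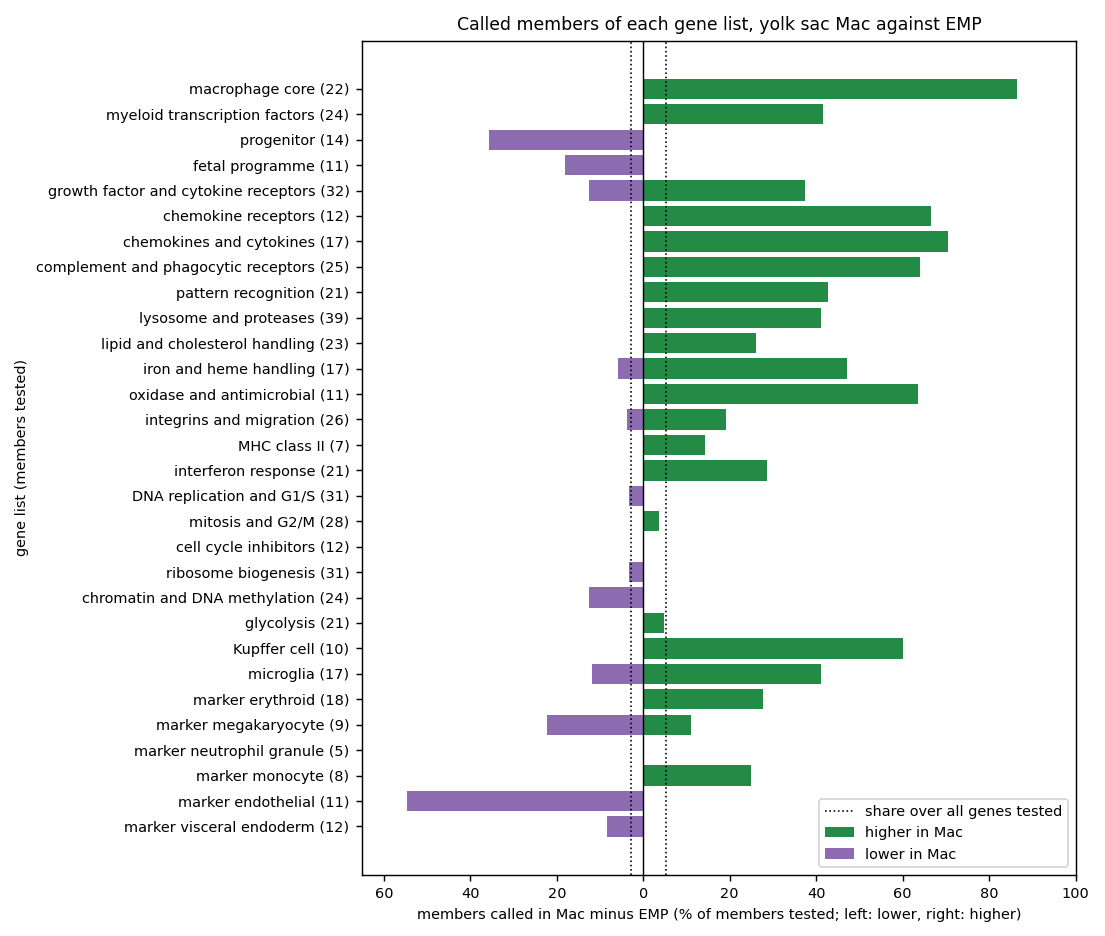
Share of tested members of each gene list called higher (right) or lower (left) in Mac against EMP, in percent, with the number tested in brackets; the dotted lines are the shares over all genes tested (5.16% higher and 2.74% lower). The macrophage core list reached 19 of 22 higher, while the cell cycle, ribosome and glycolysis lists stayed near the background.

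The 3 pMac libraries show where the level of a gene at that stage lay between EMP and Mac. Of these, 2 are of E9.5, an earlier age than that of the 2 EMP libraries of E10.25. All 3 lie in the smaller set, which holds 1 EMP library, so stage, age and set cannot be told apart. For each of the 889 called genes, the pMac mean was placed on a scale where 0 is the EMP mean and 1 the Mac mean, and a gene was called early at 0.75 or more, late under 0.25 and intermediate otherwise. Among the 581 genes higher in Mac, 94 were early (16.2%), 382 intermediate (65.7%) and 105 late (18.1%), with a median place of 0.49. Among the 308 genes lower in Mac, 128 were early (41.6%), 135 intermediate (43.8%) and 45 late (14.6%), with a median of 0.63. Levels stop at the floor, so a gene near it in both pMac and Mac has a place near 1, as Mycn did (1.03). The share of early falls thus depends in part on the floor. The pMac mean lay past the Mac mean for 60 called genes and short of the EMP mean for 43. Both ends of the scale use the same libraries that chose the genes, so these shares describe levels by stage and not times.

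**Figure D4:**
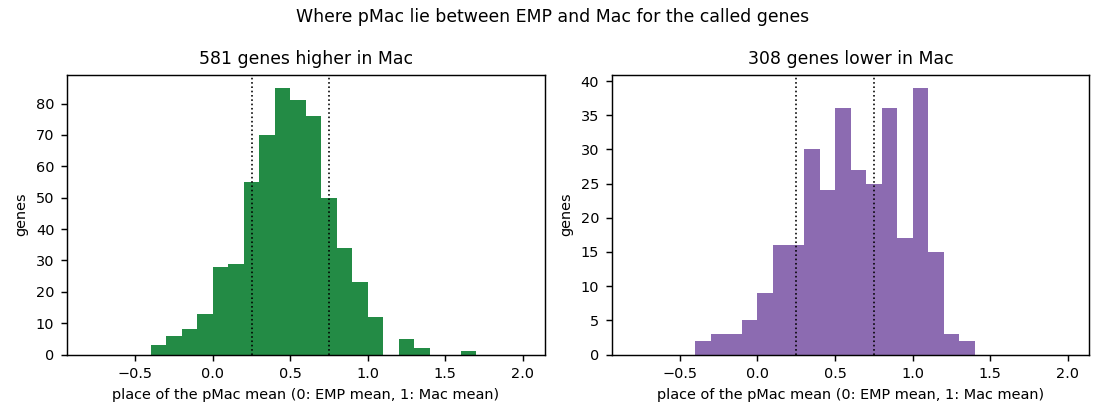
Number of called genes by the place of the pMac mean between the EMP mean (0) and the Mac mean (1), for genes higher (left) and lower (right) in Mac; dotted lines mark 0.25 and 0.75. Most of the 581 higher genes lie between the lines (382), while 128 of the 308 lower genes lie at 0.75 or beyond. A gene near the floor in both pMac and Mac has a place near 1.

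Each step had fewer calls than the whole path, and also compares fewer libraries, since pMac has 3. In pMac against EMP, 69 genes were called (0.613%; 54 higher, 0.48%, and 15 lower, 0.133%), and in Mac against pMac 50 (0.444%; 32 higher, 0.284%, and 18 lower, 0.16%), with medians over all genes of -0.04 and 0.22. At an unadjusted limma p under 0.05 there were 723 and 1075 genes in the steps, against 2356 in the whole path. The steps share the pMac libraries, and the first shares EMP with the whole path. With age as a covariate, the stage differences rest on the libraries of E10.25 alone, since each other age holds 1 stage. Both settings gave the same median over all genes, -0.53 for pMac against EMP and 0.30 for Mac against pMac. With 1 pMac library at E10.25, they cannot decide how many genes change in a step. Of the named genes, 32 were called in the first step and 22 in the second. Of these, 11 and 0 stayed called in every fit that left out 1 library, so 21 and 22 of them depended on at least 1 library.

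Among the 54 rises called in the first step were those of C1qb, Ctss, C3ar1, Mrc1, Cx3cr1, Lpl, Csf1r and Maf. Across EMP, pMac and Mac, C1qb had means of 7.81, 13.18 and 15.23, and its first step of 5.38 was called with a limma adjusted p of 0.000151. Ctss rose by 5.62 in pMac (limma adjusted p = 4.08e-05), C3ar1 by 4.73, Mrc1 by 4.57 and Cx3cr1 by 4.0. Cx3cr1 lay at 12.08, 11.69 and 12.18 in pMac, within the Mac range of 11.31 to 14.39, and well above the EMP levels of 6.81 to 8.53. Lpl behaved alike, at 13.12, 12.83 and 12.40 in pMac against 11.85 to 15.59 in Mac, a place of 0.93. Csf1r rose by 3.23 in pMac, a call lost without pMac E9.5 replicate 1 (limma adjusted p = 0.083), and Maf by 3.39, a call lost without any 1 of the pMac libraries (up to 0.0891).

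Falls called in the first step were those of Mycn, Gata2 and Kit among others. Mycn fell by 4.62 on the log2 scale in pMac (limma adjusted p = 0.00361), to 5.37, 5.37 and 6.11, and was the one named fall kept in every fit that left out 1 library. Gata2 was at the floor in all 3 pMac libraries (-4.01) and Kit fell by 4.12. Plvap and Sox18, endothelial genes, were lower in pMac by 2.98 and 2.92 on the log2 scale, and each of these 4 calls was lost without at least 1 pMac library.

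Among the 32 rises called in the second step were those of Hbb-y and other globins, and of Slc40a1, Hmox1, Blvrb, Hk3 and Fcna. Slc40a1 lay at 7.21, 6.67 and 9.19 in pMac, against 5.37, 5.37, 6.22 and 8.0 in EMP, so these stages overlapped, and it was higher in Mac than in pMac by 5.39 (limma adjusted p = 0.00169; 0.0793 without pMac E9.5 replicate 2). Hmox1 lay at 9.94, 9.56 and 11.22 in pMac, a place of 0.37, and Mac exceeded pMac by 4.21 (limma adjusted p = 0.00292; 0.0954 without the same library). Blvrb was higher in Mac than in pMac by 4.17. Hk3 lay at 5.48, 5.37 and 7.91 in pMac, and Mac exceeded it by 4.82 (limma adjusted p = 0.00495; up to 0.127 when 1 library was left out, without a pMac E9.5 library). Fcna exceeded pMac by 4.16. Stab1 and Mrc1 were the 2 genes called in both steps in the same direction: Stab1 stood at 10.74, 10.21 and 10.89 in pMac, 4.04 above EMP and 4.29 below Mac.

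The called globins were higher in Mac than in pMac. Across EMP, pMac and Mac, Hbb-y had lowest to highest levels of 6.95 to 14.70, 7.69 to 8.49 and 10.74 to 17.62, and all 5 called globins were higher in Mac than in pMac, by 4.93 to 6.25. For Hba-x the adjusted p reached 0.323 when 1 library was left out. The erythroid list mean was 6.14 to 9.57 in EMP, 6.32 to 6.43 in pMac and 7.62 to 10.86 in Mac.

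Of the 5 called genes of the progenitor list, 4 were early, 1 was intermediate (Cd34, place 0.33) and 0 were late. Some other genes that were lower in Mac had pMac means nearer to the EMP mean. Ccnd2 lay at 13.67, 13.41 and 11.86 in pMac and at 12.36, 11.71, 12.32 and 12.66 in EMP, and Mac minus pMac was -4.43 (limma adjusted p = 0.0415; up to 0.432 when 1 library was left out). Hmga2 had a place of 0.14, Mn1 of 0.09 and Tox of 0.30. Mac minus pMac was -3.75 for Mn1 and -2.95 for Tox, calls that were lost in 11 and 12 of the 14 fits that left out 1 library.

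Peaks in pMac were rare. Called in both steps with pMac highest were 4 genes (0.0355%), and limma called no gene lowest in pMac. At an unadjusted p under 0.05 in both steps these counts were 47 and 15, and 165 genes had a pMac mean more than 1 above both other stages and 256 had one more than 1 below. Across EMP, pMac and Mac, Ifi205, an interferon-inducible gene, was at the floor in 4 of 4, at 10.32, 8.28 and 8.73, and at 5.37, 5.37 and 7.47 (lowest, median, highest). It was 3.74 above EMP (limma adjusted p = 0.00799) and Mac minus pMac was -3.15 (limma adjusted p = 0.027). Btla, an inhibitory immune receptor, stood at 7.86, 8.68 and 8.07 in pMac and 2.71 above EMP. Slc1a3, a glutamate transporter, was 2.16 above EMP, and the libraries of pMac did not overlap with those of EMP or Mac for either gene. Each of the 4 peaks lost a call in at least 1 fit that left out a library, and the count was 0 without pMac E9.5 replicate 2.

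H2-Aa, a chain of MHC class II, was the fourth peak gene, and the peak lay in the E9.5 libraries. It stood at 11.27 and 10.55 in pMac of E9.5 and at 7.07 in pMac of E10.25, against 5.37, 5.69, 5.37 and 6.32 in EMP, and pMac was higher by 3.94 (limma adjusted p = 0.0396). Mac lay at 5.37, 5.37 and 7.97 (lowest, median, highest), so that pMac of E10.25 fell within the Mac range. Cd74 and H2-Ab1 had the same layout. Cd74, the invariant chain, stood at 14.16 and 12.91 in pMac of E9.5 and at 9.02 in that of E10.25, and H2-Ab1 at 13.45, 12.49 and 8.07. Of 7 MHC class II genes tested, 3 were higher in pMac than in EMP (Ctss, Cd74, H2-Aa) and 2 lower in Mac than in pMac (H2-Aa, H2-Ab1). Ctss, the protease that trims the invariant chain, had no peak, with means of 5.51 in EMP, 11.13 in pMac and 12.30 in Mac. H2-Aa lost its first step in 8 and its second step in 11 of the 14 fits that left out 1 library. With 1 pMac library at E10.25, age and library cannot be told apart.

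**Figure D5:**
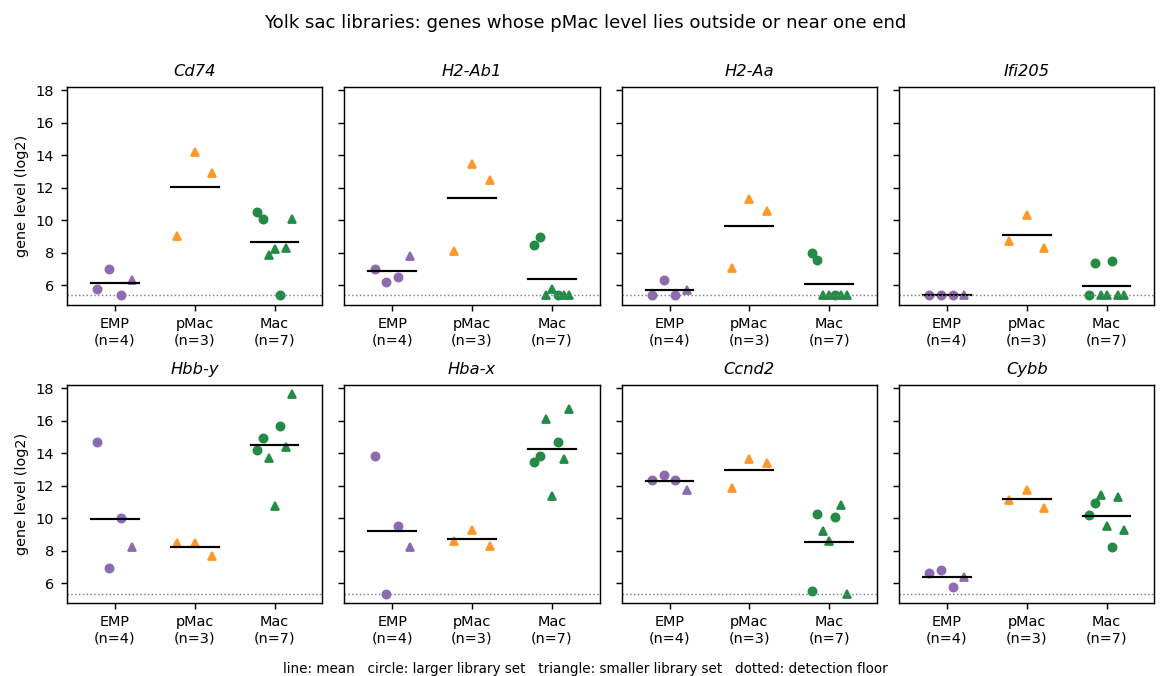
Gene level (log2) in each yolk sac library from EMP (n = 4) over pMac (n = 3) to Mac (n = 7) for genes whose pMac level lies outside the other stages or near one of them; points are libraries, lines are means and the dotted line is the floor. Cd74, H2-Ab1 and H2-Aa are high in 2 of 3 pMac libraries, Hbb-y and Hba-x are higher in every Mac library than in every pMac library, and Ccnd2 is lower in every Mac library than in every pMac library.

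The motif shown in the promoters was counted over all windows, on both strands. GAGGAA occurred in 32.5% of the windows of genes higher in Mac, in 27.1% of those of genes lower in Mac, in 27.0% of those of all genes tested and in 28.3% of all windows of the same length in the table. Windows were found for 8615 of the 11258 genes tested, chromosome 18 left out. Of the 12 largest rises 8 had a window, and 6 of these held GAGGAA in at least 1 window (C1qb, C1qc, Ctss, Mrc1, Slc11a1 and Stab1). Of the 12 largest falls 7 had a window, and 4 held it in at least 1 (Adgrg3, Emid1, Kit and Spns2). A gene can have more than 1 window, so these counts per gene cannot be set against the shares per window. AGATAA, a form of the GATA motif counted apart from the other with overlaps kept, occurred in 6.22% of the windows of genes higher in Mac, 7.52% of those lower and 6.43% of those of all genes tested. A match is a description of the letters in the window and not of binding.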

How the data were processed

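The data are bulk SMART-Seq2 libraries of sorted cells, and the 14 labelled yolksac were grouped by their cell type label. The authors deposited 1 table of normalized values on a log2 scale for 37521 transcripts, per the file headers, and the base was inferred from the range of 0.836 to 19.0. The submitters' processing notes list the aligner Bowtie (version 1.1.1), DESeq2 and mm10 without saying what each did, and the authors' normalization is not stated in any source used. With no counts, depth and counting error are unknown.

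A floor of 5.37 was set 0.5 above the highest of the libraries' low bands (the 5th percentile of each). The transcripts' parts above the floor were summed per gene on the linear scale and returned to log2, for 14181 genes; 818 transcripts matched no symbol. A gene was tested if it reached 6.37 in at least 3 libraries, which left 11258. limma 3.58.1 in R 4.3.3 was fitted to the 14 libraries with cell type alone and an intensity trend, with Benjamini-Hochberg adjustment over all genes tested, and the fit was tested on simulated data. Named genes were the 12 largest non-overlapping called rises and falls with a mean of at least 7.37 in the higher group, the marker genes, up to 4 called members per list with the largest difference, pMac peaks, and the genes the background introduces; other list members are given as examples chosen after their values were seen. The members, lists and rules were chosen with earlier results of these data known. The planned count test was not used, since the file holds no counts. Alternatives changed the filter, floor, scaling, age, replicate block, library set and libraries used. A few genes counted in the lists are not reported here by name.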

Additional observations from a re-analysis of the deposited data

Results flagged for a closer look

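Of 200 groups of levels examined (named genes and marker lists in Mac and in EMP), 25 had 1 library far from the others by Dixon's test, where chance alone flags about 5% of groups. Many of these groups lay at the floor of 5.37 in all other libraries, where any detected value is flagged.

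Mac E10.5 replicate 1 stood above the other Mac libraries in Kit (8.59), Gata2 (8.98), Mycn (8.14), Btla (6.54), the mast cell marker list (9.30) and the fibroblast marker list (8.10). Mac E10.5 replicate 3 did so in Ccl9 (14.18), Fermt3 (15.01), Tox (6.20) and the megakaryocyte marker list (10.48). Other Mac libraries stood apart in Cbx2 (6.45), Emid1 (7.55), Slc1a3 (5.71), Tek (7.18) and Tet1 (6.36).

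In EMP, E10.25 replicate 1 was high in Adgre1 (6.04) and Clec4a1 (5.51), and E10.25 replicate 2 in Clec4a2 (5.73), Fcna (5.96) and Nr1h3 (7.71). EMP E9 replicate 2 was high in C3ar1 (7.03), Gas6 (5.96) and Mpeg1 (5.62) and low in Tet1 (8.03), and EMP E9 replicate 1 was high in Mx1 (6.10).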

How the results depend on the processing

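For Mac against EMP, 588 genes were called with age as a covariate, 540 in the libraries of E10.25 alone, 311 within the larger set, 55 within the smaller set, 615 with the set as a covariate and 636 with the replicate number as a block; the other settings gave 657 to 1253. Leaving out both doubtful Mac libraries (E10.5 replicates 1 and 3) gave 1224, of which 827 were among the 889. Leaving out 1 library gave 525 to 1089. For pMac against EMP (69), no filter gave 128, the floor of the 14 libraries 123, quantile normalization 228, Mac of E10.25 only 144, both doubtful Mac libraries left out 162, the set as a covariate 7, the smaller set 3, and leaving out 1 library 15 to 148. For Mac against pMac (50), the floor raised by 1 and Mac of E10.25 only gave 31 each, the set as a covariate 18, the replicate block 8, the smaller set 0, and leaving out 1 library 0 to 70. The count of genes highest or lowest in pMac (4, all highest) was 7 with no filter, 9 after quantile normalization and 2 with the raised floor. It was 5 with the floor of the 14 libraries, of which 0 were among the 4. With the set as a covariate or Mac of E10.5 only it was 1, with no floor or the block 0, and without 1 library 0 to 6. Highest and lowest were not split in these counts. Age as a covariate and E10.25 alone rest on the same stage differences, with 1 pMac library. They cannot decide the counts for the steps or for peaks. Csf1r kept a difference of 3.85 in the smaller set and did not pass. The fits within 1 set or age have fewer libraries; the cause of the other changes was not tested. Leaving out the doubtful Mac libraries and the floor of the 14 libraries were chosen after seeing the data.

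Equal replicate numbers did not mark paired libraries, with correlations of deviations of -0.1 to 0.056 between groups. Of the 87 named calls between Mac and EMP, 72 passed in all 14 fits that left out 1 library. Those lost both with age as a covariate and at E10.25 alone included Irf5, Nr1h3, Lyz2, Cd36, Folr2, Hmga2, Igf2 and Ccnd2. Depth is unknown, and levels near the floor limit the falls most.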
